A study of Mus musculus with 10 samples.

Results

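The CC chemokines Ccl2, Ccl7, Ccl8, Ccl3, Ccl4, Ccl6 and Ccl9 and the receptors Ccr1 and Ccr2 were followed in whole 4T1 tumors with and without a guide RNA against the gene of TAZ. These 9 genes, 7 ligands and 2 receptors, were taken by name as ligands and receptors of monocyte recruitment, from 17864 genes in the table. All 9 were in the table and all 9 passed the filter on low counts. 4T1 is a mammary carcinoma line of the BALB/c mouse. In both groups the 4T1 cells carried Cas9, and they were given either a control guide RNA (sgCon, 5 tumors) or a guide RNA against Taz (sgTaz, 5 tumors) by lentivirus. According to the methods, 100000 cells were placed in mammary fat pad 4 of female mice aged 6 to 8 weeks, with BALB/c and SCID mice both named as hosts and the host of these tumors not given. No treatment other than the guide RNA is named in the labels, and whether the edited line was a clone is not stated. The guide RNA acts in the implanted cells alone, so host cells in both groups kept an unedited Taz gene. RNA came from whole tumors, and a lower share of a cell type and less RNA per cell cannot be told apart in any result below.

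CC chemokines are small secreted proteins with adjacent cysteines that bind receptors with a heptahelical fold coupled to Gi proteins, and cells that carry the receptor move up the gradient. Ccl2 and Ccl7 bind Ccr2, by which classical monocytes leave the bone marrow and enter inflamed tissue and tumors, where many become macrophages. Ccr1 is carried by monocytes, macrophages and neutrophils and answers to Ccl3, Ccl6, Ccl7 and Ccl9 among others. Macrophages make many of these ligands themselves, so the level in a tumor can come from cells that were recruited as well as from tumor cells.

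The tumors held between 14753922 and 19595821 counts in sgCon and between 12185383 and 18395558 in sgTaz, and the smallest count of any of the 9 genes in a tumor was 69. Levels are given as CPM, the counts scaled to the TMM-normalized library size, with means ± SD over 5 tumors. The level of Wwtr1, which encodes TAZ, was 163 ± 30.2 CPM in sgCon and 108 ± 19.2 CPM in sgTaz, with groups that overlapped and an adjusted p of 0.0960 (edgeR's quasi-likelihood test, Benjamini-Hochberg). Reads of an edited gene are still counted, so the level of Wwtr1 is a weak check of the labels. Markers of lymph node stroma, a tissue that lies within this fat pad, summed to between 22.2 and 353 CPM in sgCon tumors, to 261 CPM in sgTaz 5 and to at most 2.95 CPM in the other 4 sgTaz tumors. The macrophage genes Adgre1 and Csf1r, the epithelial gene Krt8 and the T cell gene Cd3e were detected in every tumor.

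The 7 ligands lie on chromosome 11 of mm10 within 1.63 Mb and fall into a pair of gene groups there, and the 2 receptors lie on chromosome 9 within 0.151 Mb, with Ccr3 between them. Ccl2 (82035571 to 82037453), Ccl7 (82045712 to 82047525) and Ccl8 (82115185 to 82116799) are on the plus strand, with Ccl11 and Ccl12 between Ccl7 and Ccl8. Ccl9 (83572919 to 83578636), Ccl6 (83587882 to 83593087) and Ccl3 (83647844 to 83649355) lie on the minus strand, followed by Ccl4 (83662584 to 83664683) on the plus strand. Ccr1 (123962124 to 123968692) is on the minus strand and Ccr2 (124101950 to 124113557) on the plus strand. None of the 9 shared exon bases with another annotated gene. Stretches of 50 bases that recur in other genes made up 2.27% of the longest Ccr2 transcript and 2% of that of Ccl9, and there were none in the other 7 genes.

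Promoter windows from RefSeq (GRCm38.p6) were at hand for 6 of the 9 genes, Ccl8, Ccl6, Ccl9, Ccl3, Ccr1 and Ccr2. The 250 bases before the start are shown for 3 of them, Ccl8 because its level differed most between the groups, and Ccl6 and Ccl9 because these neighbors moved together across tumors. Ccl8 is read from chr11:82114935-82115184 on the plus strand, Ccl9 from chr11:83578637-83578886 and Ccl6 from chr11:83593088-83593337, both on the minus strand. Capitals mark TATAAA in Ccl8, and in Ccl9 and Ccl6 the longest run that both windows share.
Ccl8: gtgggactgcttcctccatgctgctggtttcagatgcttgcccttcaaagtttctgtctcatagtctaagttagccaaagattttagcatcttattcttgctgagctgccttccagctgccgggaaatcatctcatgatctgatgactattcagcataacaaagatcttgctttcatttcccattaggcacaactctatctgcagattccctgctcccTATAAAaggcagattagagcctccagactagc
Ccl9: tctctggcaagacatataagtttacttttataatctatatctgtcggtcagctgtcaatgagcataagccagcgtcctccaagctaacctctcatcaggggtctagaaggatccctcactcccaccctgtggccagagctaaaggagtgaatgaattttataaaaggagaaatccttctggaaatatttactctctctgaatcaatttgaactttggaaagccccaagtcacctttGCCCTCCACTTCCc
Ccl6: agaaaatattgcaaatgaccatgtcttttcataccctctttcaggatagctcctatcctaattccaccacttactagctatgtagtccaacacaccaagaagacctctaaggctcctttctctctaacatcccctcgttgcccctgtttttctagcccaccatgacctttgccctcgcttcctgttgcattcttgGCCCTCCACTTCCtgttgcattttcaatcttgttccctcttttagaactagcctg
The shared run of Ccl9 and Ccl6 is 13 bases long and sits at a different distance from each start, from -14 to -2 in Ccl9 and from -55 to -43 in Ccl6. In the other pairs of the 6 windows the longest shared run was 7 to 9 bases. The TATAAA of Ccl8 begins 32 bases before the start, the usual place of a TATA box. These letters, which were looked for after the windows had been seen, stand in the last 40 bases on the same strand in 2.31% of 32851 windows. Ccl9 held TATAAA farther away, on the plus strand from -92 to -87 and on the minus strand from -94 to -89 and from -224 to -219.

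GGAATG, the core letters bound by TEAD factors with which TAZ acts, was in none of the 6 windows on either strand, against 12.6% of all 32851 windows of 250 bases. ANTTTCC, a part of the site of NF-κB factors, was found in Ccl3 as ATTTTCC from -61 to -55 and in Ccr2 as GGAAACT from -73 to -67, read on the other strand, against 15.3% of all windows. TGANTCA, a looser form of the AP-1 site that allows any middle base, was in Ccl9 as TGAATCA from -53 to -47, against 6.75% of all windows. The middle A of this match is not the C or G of the usual AP-1 site. For Ccr2 the RefSeq start lies downstream of the GENCODE start. A match of letters is a description of the window and was not tested as a site.

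Per exon length, Ccl8 was the most abundant of the 9 transcripts in every tumor. As CPM per kb of exon, its mean was 324 in sgCon and 753 in sgTaz. Ccl6 came next, at 101 and 146, again above the following gene in all 10 tumors. Ccr1 (33.1 and 41.7), Ccl7 (35.4 and 35.6), Ccl2 (31.1 and 29.7) and Ccl9 (22.5 and 30.9) formed a middle group, in which Ccr1 was above Ccl7 in 6 of 10 tumors and Ccl2 above Ccl9 in 5 of 5 sgCon and 2 of 5 sgTaz tumors. Ccl7 exceeded Ccl2 in 9 of 10. Ccl9 exceeded Ccr2 in all 10. Ccr2 (10.9 and 16.9), Ccl4 (13.2 and 11.0) and Ccl3 (11.0 and 8.01) were lowest, with Ccr2 above Ccl4 in 6 of 10 tumors and Ccl4 above Ccl3 in 9 of 10. The order of Ccr1 and Ccl7 and of Ccr2 and Ccl4 was within the spread between tumors in both groups, and that of Ccl2 and Ccl9 in sgTaz. Exon length took in the exons of all annotated transcripts of a gene, from 511 bases for Ccl8 to 6760 for Ccr2. The order depends on this choice. Without division by length, the sgCon mean was 182 CPM for Ccl6 and 166 CPM for Ccl8, and 73.4 CPM for Ccr2.

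**Figure D1:**
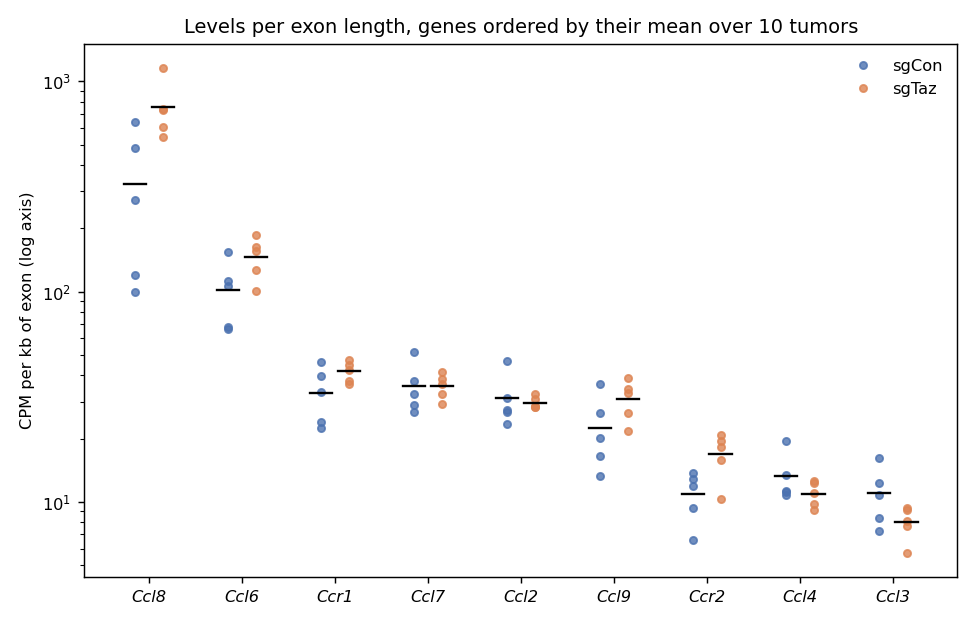
Levels of the 9 genes as CPM per kb of exon, on a log axis, with 1 point per tumor (blue sgCon, orange sgTaz, 5 each) and a black line at each group mean. Ccl8 stands highest, at group means of 324 and 753, and Ccr2, Ccl4 and Ccl3 lowest.

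Of the summed level of the 7 ligands per exon length, Ccl8 made up 54.4% ± 14.9 in sgCon tumors, between 38.2% and 75.9%, and 73.6% ± 4.63 in sgTaz tumors, between 66.3% and 78.7%. Ccl6 made up 20.8% ± 5.19 and 14.6% ± 2.84. Ccl2, a classical ligand of monocyte recruitment, made up 6.75% ± 2.68 and 3.06% ± 0.716. These shares depend on each other and on the exon lengths used, and were not tested.

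None of the 9 genes passed an adjusted p below 0.05 between sgTaz and sgCon in edgeR's quasi-likelihood test with Benjamini-Hochberg adjustment, where 0.00675% of 14816 genes tested did, a single gene. At an unadjusted p below 0.05, 3 of the 9 were past the line, Ccl8, Ccl6 and Ccr2, all with higher means in sgTaz, against 21.8% of all genes in either direction, 9.86% higher and 11.9% lower in sgTaz. DESeq2 also called none of the 9, against 6.75% of the genes to which it gave an adjusted p, 3.28% higher and 3.47% lower. Limma-voom with sample quality weights called 2, Ccl8 and Ccr2, both higher in sgTaz, against 10.4% of all genes, 4.63% higher and 5.8% lower. The groups overlapped in CPM for each of the 9, where 4.57% of all genes had groups that did not overlap, 2.44% higher and 2.13% lower in sgTaz. The median log2 fold change of sgTaz over sgCon was 0.33 over the 9 genes, 6 positive and 3 negative, and -0.019 over all genes tested.

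**Figure D2:**
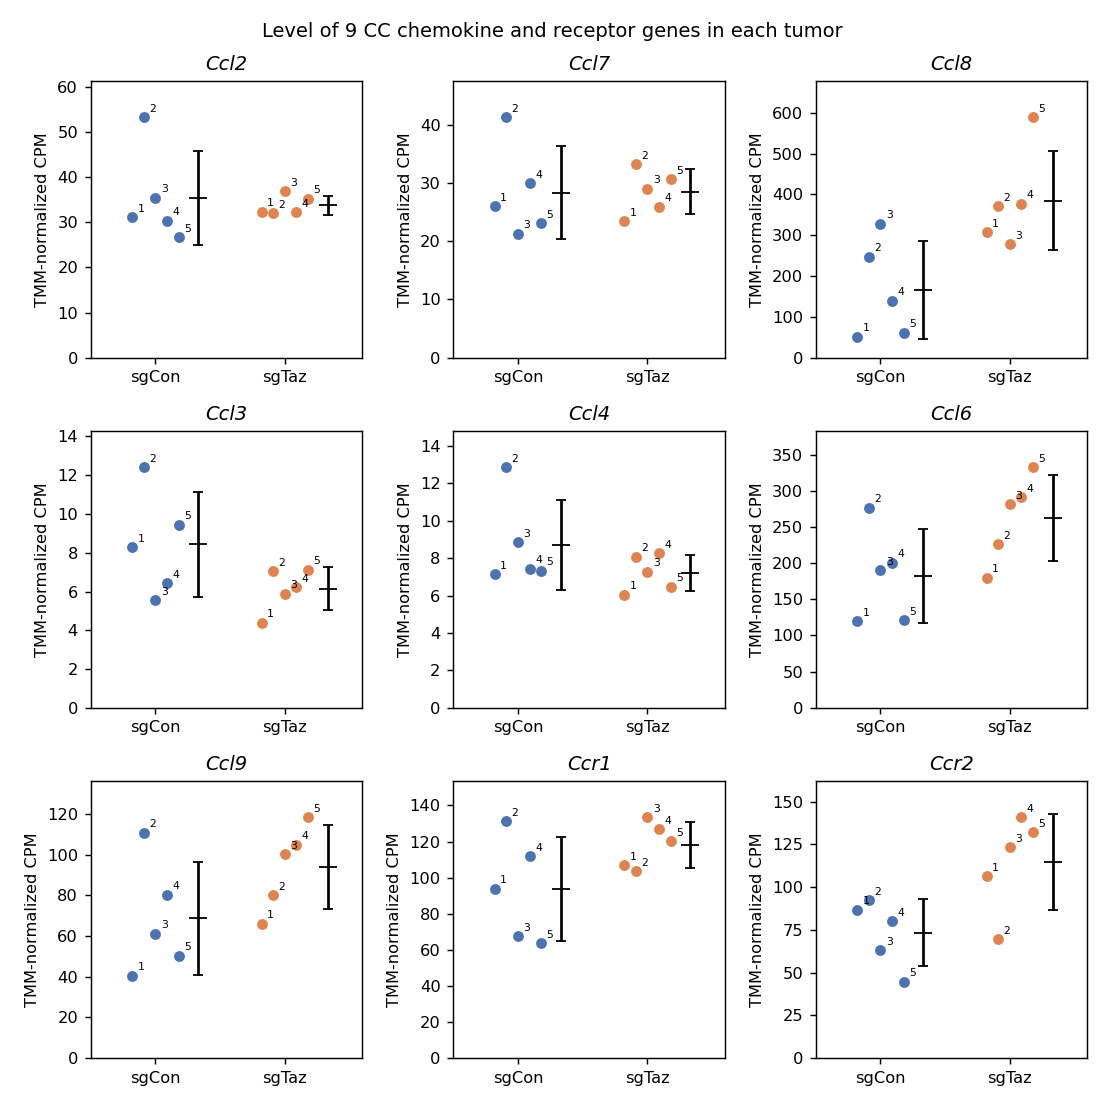
CPM of the 9 genes in each tumor, with replicate numbers beside the points and the mean ± SD of 5 tumors in black beside each group. The vertical axis of each panel starts at 0. In sgCon, tumor 2 is the highest for 8 of the 9 genes, and for Ccl8 and Ccr2 most sgTaz tumors lie above the sgCon mean.

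Ccl8, a monocyte chemoattractant protein that in the mouse acts on Ccr8, had the largest difference of the 9. It was at 51.1, 247, 329, 139 and 61.5 CPM in sgCon tumors 1 to 5 and at 308, 371, 278, 378 and 589 CPM in sgTaz tumors 1 to 5. The sgCon tumors spread widely, with tumors 1 and 5 low and tumor 3 within the sgTaz range, while 3 of 5 sgTaz tumors lay above every sgCon tumor. Ccl8 thus had a log2 fold change of 1.22 ± 0.465 (SE), a fold of 2.32, with an adjusted p of 0.171 by edgeR. The adjusted p was 0.121 by DESeq2 and 0.0452 by limma-voom, whose log2 fold change was 1.51.

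Ccl2, the main ligand of Ccr2, showed no difference that the spread could resolve. Its levels were 31.2, 53.4, 35.5, 30.4 and 26.7 CPM in sgCon tumors 1 to 5 and 32.4, 32.0, 36.9, 32.2 and 35.2 CPM in sgTaz tumors 1 to 5. The sgTaz tumors were close together and lay inside the sgCon range, in which tumor 2 was high. The SD was 10.5 CPM in sgCon and 2.20 CPM in sgTaz, and 3.60 CPM over the 4 sgCon tumors other than tumor 2. The log2 fold change was -0.07 ± 0.165 (adjusted p = 0.832, edgeR), and without sgCon tumor 2 it was 0.13 (adjusted p = 0.494).

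Ccl7, which binds Ccr2 and Ccr1, was as even between the groups as Ccl2. Its values were 26.1, 41.3, 21.3, 30.0 and 23.1 CPM in sgCon tumors 1 to 5 and 23.4, 33.3, 29.0, 26.0 and 30.7 CPM in sgTaz tumors 1 to 5. All sgTaz tumors fell inside the sgCon range. The log2 fold change was 0.0041 ± 0.175 (adjusted p = 0.993, edgeR), and it took either sign under other settings. The log2 fold changes of these 3 monocyte chemoattractant genes ran from -0.07 for Ccl2 to 1.22 for Ccl8. Whether these differ from each other was not tested.

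Ccl3 and Ccl4, the macrophage inflammatory proteins, of which Ccl3 acts on Ccr1, had lower means in sgTaz. Ccl3 was at 8.29, 12.4, 5.55, 6.44 and 9.45 CPM in sgCon tumors 1 to 5 and at 4.39, 7.04, 5.89, 6.23 and 7.13 CPM in sgTaz tumors 1 to 5. Of the sgCon tumors, 3 lay above every sgTaz tumor and the other two inside the sgTaz range. The log2 fold change of Ccl3 was -0.46 ± 0.229 (adjusted p = 0.267, edgeR), and without sgCon tumor 2 it was -0.28 (adjusted p = 0.473). Counts were low for this gene, from 69 to 248 per tumor.

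Ccl4 was at 7.15, 12.9, 8.86, 7.44 and 7.33 CPM in sgCon tumors 1 to 5 and at 6.05, 8.07, 7.29, 8.25 and 6.48 CPM in sgTaz tumors 1 to 5. Tumor 2 of sgCon was again high, and 2 sgTaz tumors lay below every sgCon tumor. Its log2 fold change was -0.27 ± 0.189 (adjusted p = 0.414, edgeR), and without sgCon tumor 2 it was -0.090.

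Ccl6, a ligand of Ccr1 made by myeloid cells of rodents, was at 119.7, 276, 191, 201 and 121 CPM in sgCon tumors 1 to 5 and at 179.7, 226, 281, 291 and 333 CPM in sgTaz tumors 1 to 5. The groups overlapped, with sgCon tumors 1 and 5 below every sgTaz tumor and sgTaz tumors 3, 4 and 5 above every sgCon tumor. Between the means the log2 fold change was 0.53 ± 0.238 (adjusted p = 0.225, edgeR).

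Ccl9, its neighbor and also a ligand of Ccr1, was at 40.5, 111, 61.1, 80.4 and 50.3 CPM in sgCon tumors 1 to 5 and at 66.1, 80.1, 100.3, 105 and 118 CPM in sgTaz tumors 1 to 5. Here 3 sgCon tumors were below every sgTaz tumor, and 1 sgTaz tumor was above every sgCon tumor. Ccl9 had a log2 fold change of 0.45 ± 0.254 (adjusted p = 0.321, edgeR). Without sgCon tumor 2, which was high for both genes, it was 0.69 for Ccl9 (adjusted p = 0.130) and 0.73 for Ccl6 (adjusted p = 0.124).

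Ccr2, the receptor that marks classical monocytes, was at 86.7, 92.4, 63.0, 80.2 and 44.7 CPM in sgCon tumors 1 to 5 and at 106, 69.6, 123, 141 and 132 CPM in sgTaz tumors 1 to 5. Apart from sgTaz tumor 2, which lay inside the sgCon range, every sgTaz tumor was above every sgCon tumor. Its log2 fold change was 0.64 ± 0.219, a fold of 1.56, with an adjusted p of 0.142 by edgeR. The adjusted p was 0.0516 by DESeq2 and 0.0420 by limma-voom, and 0.0629 by edgeR without sgTaz tumor 2.

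Ccr1 was at 93.9, 131, 67.6, 112 and 63.6 CPM in sgCon tumors 1 to 5 and at 107, 103, 133, 127 and 120.3 CPM in sgTaz tumors 1 to 5. The sgTaz tumors were close together near the upper end of the sgCon range, and 1 of them was above every sgCon tumor. For Ccr1 the log2 fold change was 0.33 ± 0.186 (adjusted p = 0.316, edgeR).

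The spread itself was uneven, with an SD of the CPM larger in sgCon than in sgTaz for 7 of the 9 genes. The exceptions were Ccl8, at 120.3 and 122, and Ccr2, at 19.4 and 28.2, both with higher means in sgTaz. As a percentage of the mean, the SD was larger in sgCon for each of the 9 genes. For Ccl8 this percentage was 72.6% in sgCon and 31.6% in sgTaz, and for Ccr2 26.5% and 24.6%. Within sgCon, tumor 2 had the highest value for 8 genes and tumor 3 for Ccl8. Without sgCon tumor 2, the SD in sgCon was below that in sgTaz for Ccl7 (3.77 and 3.87) and Ccl4 (0.786 and 0.966). The same held for Ccl6 (43.6 and 59.7) and Ccl9 (17.1 and 20.8), while for Ccl2, Ccl3 and Ccr1 it stayed larger in sgCon. These SDs were not scaled to the means. Without tumor 2 the sgCon mean was 158 CPM for Ccl6 and 58.1 CPM for Ccl9, against 262 and 94.0 CPM in sgTaz. How many of all genes had a larger SD in sgCon was not counted. Within sgTaz, tumor 5 was highest for 4 genes and tumor 1 lowest for 5.

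**Figure D3:**
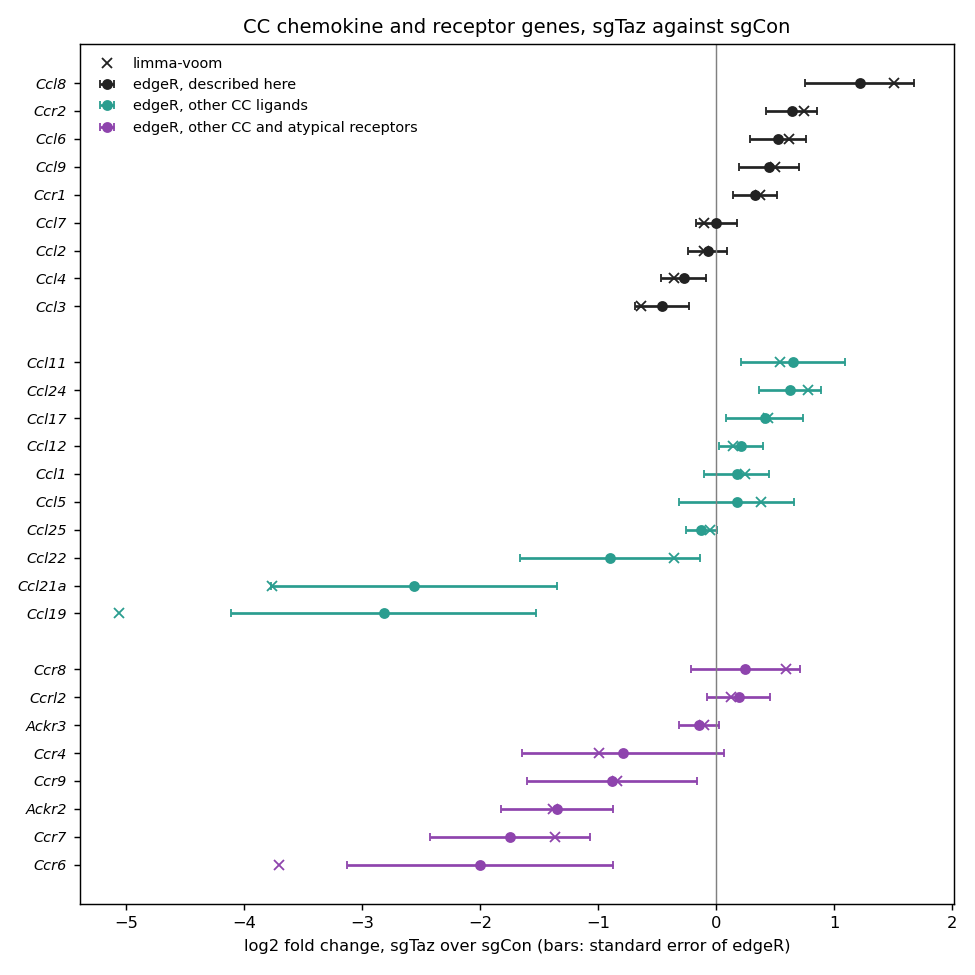
Log2 fold change of sgTaz over sgCon for the 9 genes and for other CC ligands and receptors that passed the filter. Points are edgeR's estimate, bars a standard error derived from its F statistic, and crosses the limma-voom estimate. Ccl8 lies farthest right at 1.22, and Ccl2 and Ccl7 lie near 0, at -0.07 and 0.0041.

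To see which of the 9 genes vary together from tumor to tumor, log2 CPM were compared over the 10 tumors for 6 pairs. Each group's mean had been taken off first. The pairs were of ligands, of the receptors Ccr1 and Ccr2, or of a ligand and its receptor. Ccl6 and Ccl9 had a Pearson r of 0.967 (permutation p = 5e-05, adjusted p = 0.0003 over the 6 pairs) and a Spearman rho of 0.988 (permutation p = 0.00013, adjusted p = 0.00078). The p of r is at the lower limit for permutations within groups of 5 tumors, and random draws make it approximate. Without sgCon 1 and sgTaz 1, whose values of Ccl6 lay farthest from the median of the 10, r was 0.950. The CPM of Ccl6 was 2.41 to 3.12 times that of Ccl9 in every tumor, 2.69 ± 0.321 in sgCon and 2.79 ± 0.0405 in sgTaz.

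Ccr1 and Ccr2 had a Pearson r of 0.787 (permutation p = 0.00316, adjusted p = 0.00948) and a Spearman rho of 0.782 (permutation p = 0.0184, adjusted p = 0.0552). Without sgCon 2 and sgCon 5, r was 0.658. The relation was past the threshold by r and not by rho. With sgCon 2 or sgCon 4 alone left out, the adjusted permutation p of r was 0.0523 and 0.0512.

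Ccl2 and its neighbor Ccl7 had an r of 0.678 (permutation p = 0.123, adjusted p = 0.234) and a rho of 0.20 (permutation p = 0.631, adjusted p = 0.717). This rested on sgCon 2, since r was -0.047 without it and -0.29 without sgCon 2 and sgCon 5. Ccl2 and its receptor Ccr2 had an r of 0.505 (permutation p = 0.179, adjusted p = 0.234), a rho of 0.370 (permutation p = 0.318, adjusted p = 0.564) and an r of 0.0610 without sgCon 2 and sgCon 5. Ccl3 and Ccl4 had an r of 0.536 (permutation p = 0.195, adjusted p = 0.234) and a rho of 0.345 (permutation p = 0.376, adjusted p = 0.564). Their r also rested on sgCon 2, as it was 0.0149 without that tumor alone, and 0.421 without sgCon 2 and sgCon 3. Ccl3 and its receptor Ccr1 had an r of 0.366 (permutation p = 0.441, adjusted p = 0.441), a rho of 0.152 (permutation p = 0.717, adjusted p = 0.717) and an r of -0.41 without the same pair of tumors. These 4 relations were not past the threshold.

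**Figure D4:**
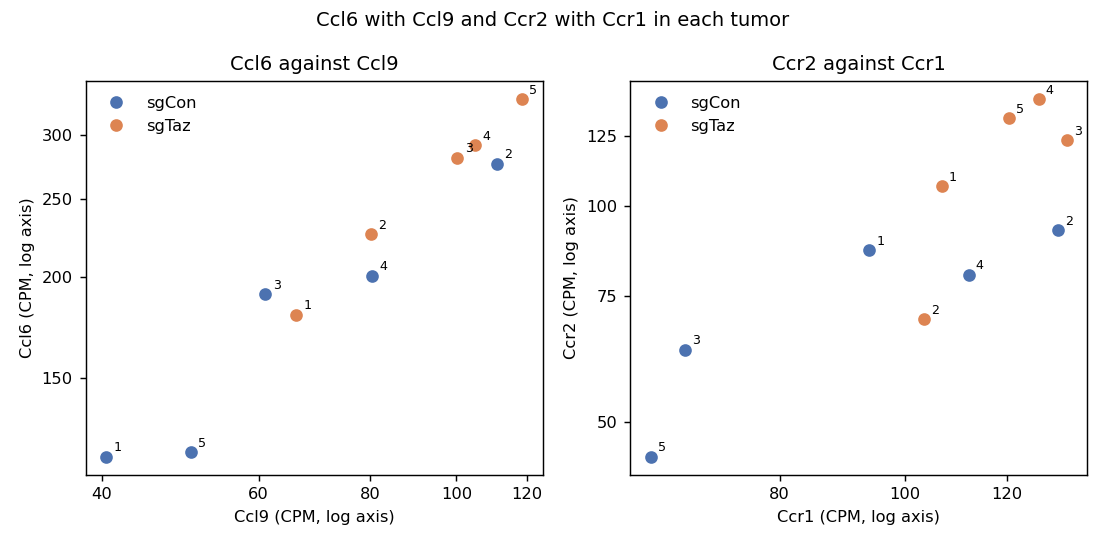
CPM of Ccl6 against Ccl9 (left) and of Ccr2 against Ccr1 (right) in the 10 tumors, on log axes, with replicate numbers beside the points. Both groups lie along a single band for Ccl6 and Ccl9 (r of 0.967 within groups), and the points of Ccr2 and Ccr1 scatter more widely (r of 0.787).

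Over all 36 pairs of the 9 genes, 35 within-group r were positive and 23 were above 0.5, with Ccl8 and Ccl3 the pair below 0, at -0.064. The points share libraries, their normalization and the high sgCon tumor 2, so these are a description. Among 14056 other genes with a mean of at least 1 CPM, those most like Ccl8 over the 10 tumors were Ostm1 (r of 0.968), Cd200r1 (0.959) and Id2 (0.958). Those most like Ccl2 were Xdh (0.926), Osbpl11 (0.910) and Ms4a2 (0.893). For Ccl3 they were Kcnmb1 (0.952), Clec4d (0.932) and Shc2 (0.930), and for Ccr2 they were G6pdx (0.961), Cul1 (0.955) and Mpeg1 (0.953). With so many genes searched over 10 tumors, high values at the top are not a test. Mpeg1, a gene of macrophages, was at 184 CPM in sgCon and 322 CPM in sgTaz (log2 fold change 0.81, adjusted p = 0.108, edgeR).

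Of 14 other CC ligands listed, 10 were tested and none was called by edgeR or DESeq2, with 1 higher and 0 lower at an unadjusted p below 0.05 and a median log2 fold change of 0.18. Beside this and the lists below, the shares of all genes at that unadjusted p were 9.86% higher and 11.9% lower in sgTaz (edgeR). Ccl24, a ligand of Ccr3 made by macrophages, was at 17.3 ± 6.60 CPM in sgCon and 26.7 ± 6.66 CPM in sgTaz (log2 fold change 0.63 ± 0.262, adjusted p = 0.198, edgeR). Ccl11, which also binds Ccr3, had a log2 fold change of 0.65 (adjusted p = 0.405, edgeR). Ccl12, a Ccr2 ligand of the mouse, was at 28.4 ± 8.77 and 32.9 ± 4.84 CPM, with a log2 fold change of 0.21 (adjusted p = 0.532, edgeR). Ccl5, a ligand of Ccr1, was at 29.0 ± 26.1 and 32.7 ± 16.4 CPM, with a log2 fold change of 0.17 (adjusted p = 0.864, edgeR).

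The lymph node ligands Ccl19 and Ccl21a, which guide cells with Ccr7, had log2 fold changes of -2.82 ± 1.29 and -2.56 ± 1.21 (adjusted p = 0.232 and 0.245, edgeR), and limma-voom called both lower. Of their transcripts, 59.1% and 71.6% of the stretches of 50 bases recur in other genes, so how reads were split among these copies is uncertain. The summed level of the other CC ligands was 286 CPM in sgTaz 5, the tumor with lymph node stroma markers, and at most 135 CPM in the other sgTaz tumors. The part of lymph node tissue in these values was not tested.

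Of 14 other CC and atypical receptors, 9 were tested, with none called by edgeR and a median log2 fold change of -0.79. Ccr7, found on T cells, B cells and mature dendritic cells, had a log2 fold change of -1.75 ± 0.675 (adjusted p = 0.175, edgeR), and Ccr6, found on B cells among others, one of -2.0 ± 1.13 (adjusted p = 0.323, edgeR). Ackr2, which scavenges inflammatory CC chemokines, was at 2.58 ± 1.58 and 1.01 ± 0.481 CPM (log2 fold change -1.35 ± 0.473, adjusted p = 0.149, edgeR). Limma-voom called Ccr6 and Ackr2 lower.

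Of 23 genes of signaling below these receptors, all were tested and none was called by edgeR, with 0 higher and 4 lower at an unadjusted p below 0.05 and a median log2 fold change of -0.073. These 4 were Grk2, a kinase that turns off chemokine receptors (log2 fold change -0.65 ± 0.173, adjusted p = 0.0999, edgeR), Rac2, a GTPase of blood cells needed for movement (-0.97 ± 0.391, adjusted p = 0.187), Vav1, an activator of Rac proteins (-0.50 ± 0.215, adjusted p = 0.205), and Pik3r5, a subunit of PI3K gamma (-0.72 ± 0.309, adjusted p = 0.206). DESeq2 called Grk2 lower (adjusted p = 0.0155), as did limma-voom (adjusted p = 0.0269). All 4 genes were highest in sgCon 3, the tumor in which the sum of this list was high. Rac2 was at 142 ± 102 CPM in sgCon, with a maximum of 319 CPM, and at 72.2 ± 25.4 CPM in sgTaz. Grk2 was at 192 ± 58.9 and 122 ± 11.0 CPM. Of all genes, 11.9% were lower at the same unadjusted p.

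Of 18 inducers of CC chemokines, 16 were tested and none was called by edgeR, with 4 higher and 2 lower at an unadjusted p below 0.05 and a median log2 fold change of -0.055. Rela, a subunit of NF-κB, was at 90.1 ± 7.23 CPM in sgCon and 71.1 ± 4.67 CPM in sgTaz (log2 fold change -0.34 ± 0.0763, adjusted p = 0.0896, edgeR). Tlr4, the receptor of lipopolysaccharide, had a log2 fold change of 0.47 ± 0.152 (adjusted p = 0.129, edgeR), and Irf3, which drives interferon genes, one of -0.31 ± 0.102 (adjusted p = 0.133, edgeR). DESeq2 called Rela lower (adjusted p = 0.0096) and Tlr4 higher (adjusted p = 0.0498).

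Markers of the cells that make these chemokines or carry their receptors also differed in mean. All 13 macrophage markers had a positive log2 fold change, with a median of 0.45, 5 higher at an unadjusted p below 0.05 and none called by edgeR. DESeq2 called 3 of them higher, Adgre1, Csf1r and Mrc1 (adjusted p = 0.0173, 0.0158 and 0.0366), and limma-voom called 4, these and Cd68. Their summed level was 1994 to 4542 CPM in sgCon and 3607 to 4696 CPM in sgTaz. Adgre1, the gene of F4/80, was at 44.8 ± 18.1 and 89.0 ± 24.2 CPM (log2 fold change 0.99 ± 0.292, adjusted p = 0.114, edgeR), and Csf1r, the receptor of CSF1, had a log2 fold change of 0.65 ± 0.177 (adjusted p = 0.101, edgeR). Ccl8 and Ccr2 had higher means in the group in which these markers did. The part of macrophage number in the values of Ccl8, Ccl6, Ccl9, Ccr1 and Ccr2 was not tested.

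The 7 monocyte markers were split, 3 positive and 4 negative, with a median log2 fold change of -0.39 and sums of 271 to 462 CPM in sgCon and 234 to 602 CPM in sgTaz. Ly6c2, which marks the classical monocytes that carry Ccr2, was at 7.66 ± 3.68 CPM in sgCon and 2.90 ± 1.88 CPM in sgTaz (log2 fold change -1.40 ± 0.449, adjusted p = 0.127, edgeR). Ms4a4c had a log2 fold change of -0.70 ± 0.180 (adjusted p = 0.0960, edgeR) and F13a1 one of 0.79 ± 0.312 (adjusted p = 0.180, edgeR). DESeq2 called Ly6c2 and Ms4a4c lower (adjusted p = 0.0290 and 0.0114), as did limma-voom. The estimates of Ccr2 and of Ly6c2 thus had opposite signs in the same tumors.

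All 8 neutrophil markers tested of 9 listed had a negative log2 fold change, with a median of -0.96 and 5 lower at an unadjusted p below 0.05, while Ccr1, which neutrophils also carry, had a positive one. Their summed level was 364 to 1166 CPM in sgCon and 219 to 657 CPM in sgTaz. The 7 T cell and 8 B cell markers were also all negative, with medians of -1.72 and -3.11. T cell markers summed to 87.6 to 689 CPM in sgCon and 58.6 to 182 CPM in sgTaz. B cell markers summed to 64.6 to 875 CPM in sgCon and 0.955 to 201 CPM in sgTaz. The sgTaz maxima were those of sgTaz 5, the tumor with lymph node stroma markers. In the other sgTaz tumors the sums were at most 82.8 CPM for T cell and 13.8 CPM for B cell markers. Every sgCon tumor held lymph node stroma markers, at 22.2 CPM or more. The part of lymph node tissue in the T and B cell values was not tested. The 8 epithelial markers had a median of -0.47 (2108 to 4999 against 1611 to 3898 CPM), the 7 fibroblast markers one of 0.035 (1381 to 3714 against 1468 to 3250 CPM) and the 4 endothelial markers one of 0.22 (343 to 437 against 271 to 569 CPM). NK cell markers were near the floor, at 4.55 to 14.1 and 6.46 to 12.9 CPM. EdgeR called none of these markers. Limma-voom called all 8 B cell markers, 3 neutrophil, 2 T cell and 1 epithelial marker lower and 1 fibroblast marker, Pdgfra, higher. DESeq2 called 2 T cell markers, Cd3d and Lck, and the epithelial marker Krt19 lower and Pdgfra higher. No listed marker was at 0 in all 10 tumors. The part of these cell types in the results on the 9 genes was not tested.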

How the data were processed

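RNA of 10 whole tumors was sequenced by the authors on an Illumina, mapped to mm10 with STAR in its two-pass mode and GENCODE annotation, and counted per gene with featureCounts of Subread. The deposited values are the authors' raw counts for 17864 genes. Tool versions and the strand setting are not given in the sources used here. A further 5 columns matched no sample and were not used here. Groups come from the sample titles, and whether replicates are separate mice is not stated, so p-values measure the spread between these tumors.

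Counts were analyzed in R 4.3.3 with edgeR 4.0.16 (TMM, filterByExpr by group, glmQLFit and glmQLFTest), with Benjamini-Hochberg adjustment over all 14816 genes kept and a threshold of 0.05. The SE of edgeR's log2 fold changes was derived as the absolute log2 fold change divided by the square root of the F statistic. DESeq2 1.42.0 and limma 3.58.1 were alternatives. Names, exon lengths and positions come from GENCODE M21, in which 17860 identifiers were found. Relations used log2 CPM with a prior count of 2, centered within groups, and 100000 permutations within groups. Motifs were searched on both strands. Scripts were tested on simulated data.

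The 9 genes and all gene lists were chosen with earlier results of these data known, and no list test was made. Named were the 9 genes, from each of the 4 lists of ligands, receptors, signaling and inducers the called genes and the 4 with the smallest p, always Ccl5, Ccl12 and Ccr7, the 3 genes most alike to Ccl2, Ccl8, Ccl3 and Ccr2, and Wwtr1. Some genes that this rule names are not reported here. Marker genes were named after their values were seen. Other settings were RLE and upper-quartile normalization, no filter, at least 10 counts in every tumor, the replicate number as a block, each tumor left out and, for the relations, a prior count of 0.5.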

Additional observations from a re-analysis of the deposited data

Results flagged for a closer look

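No group of tumors held an extreme value for any of the 9 genes, among 18 sets of 5 tumors checked with Dixon's test at its 95% critical value. Among all 46 sets checked, which included the summed level of each gene list, 5 held one, where chance gives about 2.3. In log2 of the summed CPM plus 1, the other CC ligands were at 8.17 in sgTaz 5 and at 6.65 to 7.08 in the other 4 sgTaz tumors. The lymph node stroma markers were at 8.03 in the same tumor and at 0.252 to 1.98 in the others. SgTaz 1 was low for the neutrophil markers, at 7.78 against 9.05 to 9.36, and for the fibroblast markers, at 10.5 against 11.5 to 11.7. The genes of receptor signaling were at 11.9 in sgCon 3 and at 11.6 to 11.7 in the other sgCon tumors.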

How the results depend on the processing

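Each of the 9 fold changes was recomputed under 17 alternatives, and 141 of the 153 values kept their sign and their side of the threshold. Limma-voom moved Ccl8 (log2 fold change 1.51) and Ccr2 (0.75) past it and so called 2 of the 9 genes, and no other alternative called any. Leaving out each tumor in turn called 0 of the 9, with log2 fold changes of 0.99 to 1.62 for Ccl8 and 0.51 to 0.78 for Ccr2. That of Ccl2 was -0.16 to 0.13, and its sign turned without sgCon 2 (0.13). That of Ccl7 turned under limma-voom (-0.10), upper-quartile normalization (-0.0010) and at least 10 counts in every tumor (-0.0024), and with a tumor left out it ranged from -0.081 to 0.18. The relation of Ccl2 and Ccl7 ranged from r of -0.047 to 0.815 and that of Ccl3 and Ccr1 from -0.070 to 0.635, both turning without sgCon 2. That of Ccl3 and Ccl4 was lowest without sgCon 2, at 0.0149, and highest without sgCon 3, at 0.71. That of Ccr1 and Ccr2 ranged from 0.664 to 0.865 and lost its call without sgCon 2 or sgCon 4.

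Over all genes, edgeR called 1, DESeq2 1085, limma-voom 1546, edgeR without a filter 0 (3610 at an unadjusted p below 0.05) and with at least 10 counts in every tumor 5. With a tumor left out the count was 0 to 172, with 172 without sgTaz 5 and 75 without sgTaz 2. The cause of these differences was not tested. Replicate numbers did not pair the tumors (r of the deviations -0.24 to 0.22, with 1 of 5 best matched to its own number). With the replicate number as a block, edgeR called 0 genes and 0 of the 9 (Ccl8 1.52). Depth limits Ccl3 and Ccl4 most, with 69 to 257 counts per tumor.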
